A study of Homo sapiens with 6 samples.

Results

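The 50 genes described here encode the machinery that makes ribosomal RNA, builds it into ribosomal subunits and trims or destroys RNA in the RNA exosome. They were taken from a list of gene symbols by a rule that uses no fold change or p-value. The list itself was chosen with earlier results of these data known. All 50 were found among the 27738 genes matched in the authors' deposited table. Each gene is represented by its RefSeq transcript accession with the highest base mean, the mean over all libraries of counts divided by a library's size factor. RNA came from U87, an established human glioblastoma cell line, in 2 groups of 3 libraries. Cells of the first group are labelled EGFR+vIII and carry the epidermal growth factor receptor together with vIII, its constitutively active deletion mutant. Cells of the second group, labelled EGFR+vIII TLR2 KO, carry the same receptors and a knockout of TLR2, a receptor of innate immunity. How the receptors were introduced, whether the knockout is 1 clone and whether libraries of a group are separate cultures are not given in the labels used here. The p-values therefore measure nothing beyond the spread of these libraries (possibly technical only), and a difference between clones cannot be told apart from the knockout.

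Ribosomes are assembled in the nucleolus. RNA polymerase I transcribes a long precursor, the small subunit processome and large subunit assembly factors fold and cut it, and small nucleolar ribonucleoproteins (snoRNPs) guide its methylation and pseudouridylation. The RNA exosome, a barrel of EXOSC subunits with attached nucleases, trims precursor ends and degrades by-products and many other nuclear RNAs. The transcription factor MYC is a known activator of many of these genes, and growing tumour cells make ribosomes at a high rate.

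Fold changes give the knockout relative to EGFR+vIII, following the order of the group names in the deposited table. The targeted gene could not be used to check that order, because TLR2 is listed at 0 in all 8 of its accessions. Were the order the other way round, each direction below would turn. The base means sum to 11240272 normalized reads, and size factors derived for the 6 libraries lay between 0.928 and 1.07. Of 6 glioma markers in the authors' deposited table, VIM had a base mean of 126476, NES of 539.6, CHI3L1 of 152.3, SOX2 of 69.0 and CD44 of 26.7, and GFAP was listed at 0. These markers differed between the groups as well: CHI3L1 rose by 3.01 and NES by 1.01, while SOX2 fell by 2.45 and VIM fell by 0.29, as log2 values of the authors' deposited table. Their adjusted p ran from 3.35e-34 for CHI3L1 to 0.00235 for VIM. Of 7 markers of other cell types, only EPCAM and PECAM1 carried an adjusted p, and 0 were called. For PTPRC, CD14, CDH1 and GFAP, with 4 accessions each, a listing at 0 is no measure of absence. The base mean of CD44, which has 8 accessions, is likewise no measure of a low level. PTPRC, CD14 and CDH1 were listed at 0 in the authors' deposited table, CD3E and CDH5 had base means of 2.47 and 0.539, EPCAM of 22.4 and the endothelial gene PECAM1 of 159.3 (not called, adjusted p = 0.0981). The part of these markers in the results below was not tested, and in bulk RNA a shift in the share of cells of one kind cannot be told apart from a change of RNA per cell.

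The first question was how many of the 50 genes differed between the groups. Of the 39 members with an adjusted p, 22 rose in the knockout and 0 fell at an adjusted p under 0.05 of the authors' DESeq2 Wald test (Benjamini-Hochberg over 10303 accessions). At an unadjusted p under 0.05 the counts were 26 higher and 0 lower. Over all tested accessions of the authors' deposited table, 11.6% were called higher and 11.9% lower. The called share is larger among well-counted accessions, at 19.9% higher for those with a base mean of at least 100 and 17.0% higher for genes with 1 accession. Of the 28 members with a base mean of at least 100, 20 were called higher, and of the 24 members with 1 accession, 18 were. The fold change was above 0 in 38 of the 39 tested members, with a median log2 fold change of 0.37 against 0.02 over all tested accessions of the authors' deposited table. Members were chosen with earlier results of these data known, so these counts are a description and no test of the list was made.

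The rises were small. Among the 22 called members the log2 fold change in the authors' deposited table ran from 0.23 to 1.26. Its median was 0.42, a 1.34-fold difference, and by these values 2 members (WDR3 and RRP12) passed 2-fold. Deposited values of genes with few reads can understate the gap between groups (see EXOSC1 and NOP16 below), so this count could be too low. The 95% interval of 28 of the 39 tested members covered the members' median of 0.37. It lay above that median in 8 (EXOSC3, EXOSC4, EXOSC5, WDR3, RRP12, BYSL, NOC2L and RRS1) and below it in 3 (EXOSC7, RRP9 and POLR1A). Exons of EXOSC4, HEATR1, NOC2L, NOP14 and RRS1 overlap those of another gene over more than 10% of their length, and EXOSC3, EXOSC8, FBL, NOC2L and WDR12 have named pseudogenes, so that part of their reads is of uncertain origin. The calls depend on the null that is tested. With Wald scores divided by their own central spread of 1.75 over all tested accessions, 8 of the 22 calls held (EXOSC3, EXOSC5, EXOSC8, WDR3, BYSL, HEATR1, NOC2L and RRS1), and only that of WDR3 held when the null was any change up to 1.5-fold.

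**Figure D1:**
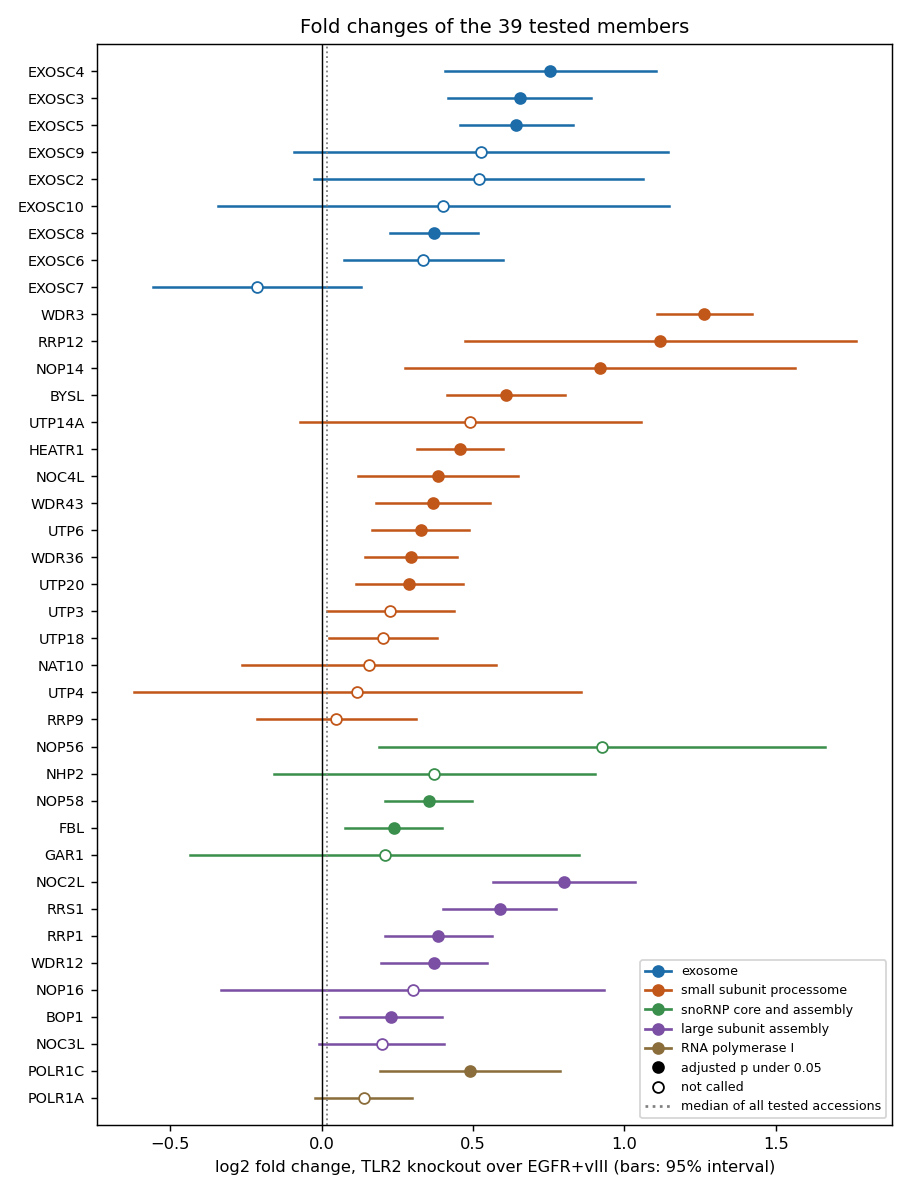
Log2 fold change (knockout over EGFR+vIII) of the 39 tested members by role, with 95% intervals as bars; filled points have an adjusted p under 0.05. The 22 filled points all lie right of 0, from 0.23 to 1.26, and only EXOSC7 lies left of 0.

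RNA polymerase I is the enzyme that transcribes the ribosomal RNA precursor. POLR1C, a subunit shared by RNA polymerases I and III, rose by 0.49 (standard error 0.15, adjusted p = 0.00742), as log2 values of the authors' deposited table. The level of POLR1C, computed from base mean and fold change, was 252.4 normalized reads per library in EGFR+vIII and 354.2 in the knockout. POLR1A, the largest catalytic subunit, had levels of 2580 and 2842 and a log2 fold change of 0.14 (standard error 0.08, adjusted p = 0.237) in the authors' deposited table. The 95% interval of POLR1A, from -0.02 to 0.30, leaves room for a rise of up to 1.23-fold. POLR1B, the second-largest subunit, has 7 accessions and a highest base mean of 0.158, equal to 1 read in 1 library, so whether it changed was not detectable.

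The small subunit processome folds the precursor around the future small subunit, and 10 of its 16 tested members (62.5%) rose while 0 fell. Over all tested accessions 11.6% were called higher and 11.9% lower. WDR3 (chromosome 1, 117929739 to 117966543, GRCh38), a WD-repeat scaffold of the processome, showed the largest deposited fold change. Its computed level was 3405 normalized reads per library in EGFR+vIII and 8179 in the knockout. This is a 2.40-fold rise (95% interval 2.15 to 2.68), with a log2 fold change of 1.26 (standard error 0.08, adjusted p = 4.27e-54) in the authors' deposited table. RRP12, a factor of subunit maturation and export, rose by 1.12 (standard error 0.33, adjusted p = 0.00433) and NOP14, a processome component, by 0.92 (standard error 0.33, adjusted p = 0.0247), as log2 values of the authors' deposited table. Both rest on few reads: computed levels went from 25.0 to 54.3 for RRP12 and from 25.7 to 48.6 for NOP14, and each gene has 3 accessions.

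Better-counted members of the processome rose by less. BYSL, needed for late processing of the small subunit precursor, rose by 0.61 (standard error 0.10, adjusted p = 1.39e-08) in the authors' deposited table, from a computed 705.7 to 1078 normalized reads per library. HEATR1, a very large repeat protein that binds early in assembly, rose by 0.46 (standard error 0.07, adjusted p = 4.3e-09) in the authors' deposited table. NOC4L, the partner of NOP14, rose by 0.38 (standard error 0.14), WDR43 by 0.37 (standard error 0.10), UTP6 by 0.33 (standard error 0.08), WDR36 by 0.30 (standard error 0.08) and UTP20 by 0.29 (standard error 0.09), all components of the processome, as log2 values of the authors' deposited table. Their adjusted p in the authors' deposited table ran from 0.000524 (UTP6) to 0.0225 (NOC4L).

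The 6 tested processome members without a call differ in how much can be said of them. RRP9, a protein of the U3 snoRNP, had computed levels of 1159 and 1199 and a log2 fold change of 0.05 (95% interval -0.21 to 0.31) in the authors' deposited table. UTP18 (0.20, standard error 0.09) and UTP3 (0.23, standard error 0.11) had 95% intervals above 0 and adjusted p of 0.0943 and 0.116 in the authors' deposited table. NAT10, the acetyltransferase of small subunit rRNA, had a fold change (log2) of 0.16 (standard error 0.21), UTP14A one of 0.49 (standard error 0.29) and UTP4 one of 0.12 (standard error 0.38) in the authors' deposited table. The base means of UTP14A and UTP4 were 74.5 and 7.82, and their 95% intervals ran from -0.07 to 1.05 and from -0.62 to 0.86, which include both 0 and the members' median of 0.37.

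The snoRNPs modify the precursor at sites chosen by their guide RNAs. In the box C/D class, which methylates, NOP58 rose by 0.35 (standard error 0.07, adjusted p = 1.26e-05) and the methyltransferase FBL (fibrillarin) by 0.24 (standard error 0.08, adjusted p = 0.0179), as log2 values of the authors' deposited table. The computed level of NOP58 went from 4463 to 5702 normalized reads per library and that of FBL from 3676 to 4338. NOP56, the partner of NOP58, had a fold change (log2) of 0.93 (standard error 0.38, adjusted p = 0.0564) in the authors' deposited table, on a base mean of 16.6 over 3 accessions. In the box H/ACA class, which makes pseudouridine, NHP2 had a fold change (log2) of 0.37 (standard error 0.27) and GAR1 one of 0.21 (standard error 0.33) in the authors' deposited table, neither called. The pseudouridine synthase DKC1 has no adjusted p, and NOLC1, a chaperone of snoRNPs, is listed at 0 in all 3 accessions of the authors' deposited table.

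Large subunit assembly factors rose in 5 of 7 tested members (71.4%), beside 11.6% called higher over all tested accessions. NOC2L (chromosome 1, 944203 to 959256), which escorts large subunit precursors through the nucleolus, had computed levels of 3010 normalized reads per library in EGFR+vIII and 5244 in the knockout. It rose by 0.80 (standard error 0.12, adjusted p = 4.15e-10) in the authors' deposited table, while its partner NOC3L had a fold change (log2) of 0.20 (standard error 0.11, adjusted p = 0.18). RRS1, which helps to place the small ribosomal RNA of the large subunit, rose by 0.59 (standard error 0.09, adjusted p = 9.45e-09) in the authors' deposited table, from a computed 1004 to 1509. RRP1 rose by 0.38 (standard error 0.09) and WDR12 by 0.37 (standard error 0.09), as log2 values of the authors' deposited table. BOP1, which forms a complex with PES1 and WDR12, rose by 0.23 (standard error 0.09, adjusted p = 0.0341) in the authors' deposited table. The call of BOP1 was lost when fold changes were centred on their median (adjusted p = 0.0589), and PES1 is listed at 0 in all 4 accessions of the authors' deposited table.

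In the RNA exosome, 4 of 9 tested subunits (44.4%) rose and 0 fell, beside 11.6% higher and 11.9% lower over all tested accessions. Among the ring subunits, EXOSC4 rose by 0.76 (standard error 0.18, adjusted p = 0.000185) and EXOSC5 by 0.64 (standard error 0.10, adjusted p = 3.4e-10), as log2 values of the authors' deposited table. EXOSC8 rose by 0.37 (standard error 0.07, adjusted p = 6.01e-06) in the authors' deposited table, on a computed level that went from 2878 to 3724 normalized reads per library. The cap subunit EXOSC3, which binds RNA at the entry of the barrel, rose by 0.65 (standard error 0.12, adjusted p = 6.67e-07) in the authors' deposited table, from a computed 448.8 to 706.3. The computed level of EXOSC5 went from 940.4 to 1469 and that of EXOSC4 from 177.1 to 299.0.

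The other tested exosome subunits were not called. The ring subunit EXOSC6 had a fold change (log2) of 0.34 (standard error 0.13) and just missed the threshold (adjusted p = 0.0521) in the authors' deposited table. EXOSC7 had computed levels of 236.3 and 204.0 and was the only tested member below 0, with a log2 fold change of -0.21 (standard error 0.18, adjusted p = 0.46) in the authors' deposited table. A second tested accession of EXOSC7, with a base mean of 13.9, had a fold change (log2) of 0.49 (standard error 0.38, adjusted p = 0.421) in the authors' deposited table. The direction of EXOSC7 is thus not settled. EXOSC9 (0.53, standard error 0.32), the cap subunit EXOSC2 (0.52, standard error 0.28) and the nuclease EXOSC10 (0.40, standard error 0.38) were not called in the authors' deposited table, with base means of 48.4, 76.4 and 14.3.

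**Figure D2:**
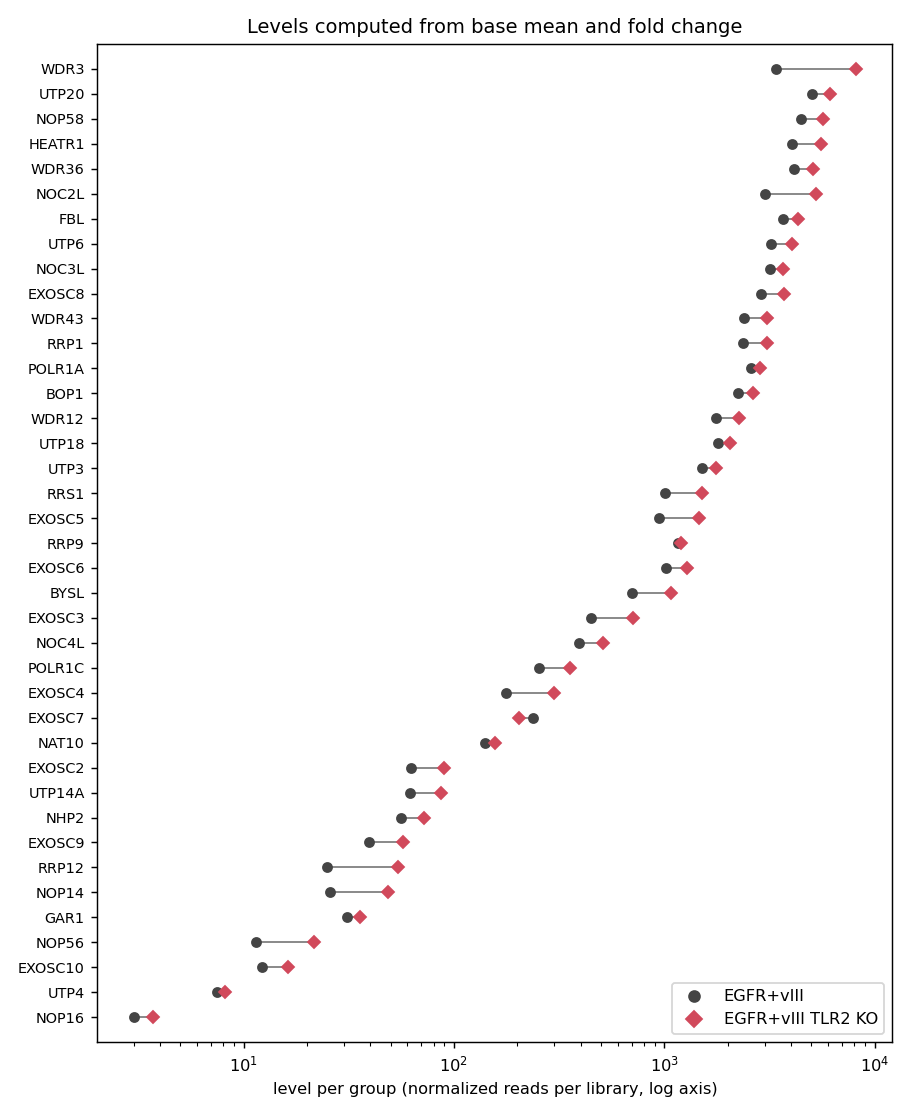
Levels of the 39 tested members in EGFR+vIII (circles) and the knockout (diamonds), in normalized reads per library on a log axis, computed from base mean and fold change. WDR3 shows the widest gap among members over 1000 reads, from 3405 to 8179, and the pair of RRP9 nearly coincides at 1159 and 1199.

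To compare genes with each other, base means were divided by the length of the matching GENCODE transcript. Over the 24 members with 1 accession this level ran from 212.6 to 3454 normalized reads per kilobase, with a median of 761.4. FBL was highest, followed by EXOSC8 (2755), NOP58 (2484) and NOC2L (1479), each as base mean per kilobase. POLR1A (212.6) and EXOSC6 (223.4) were lowest on this scale. WDR3, with the largest deposited fold change, stood at 580.7 normalized reads per kilobase, below the median.

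The base mean of a member went with its number of accessions. All 24 members with 1 accession had a base mean of at least 100 in the authors' deposited table, between 238.0 (EXOSC4) and 5792 (WDR3). Of the 26 members with several accessions, 4 (15.4%) did. The same split holds for protein-coding genes at large, of which 40.9% with 1 accession and 7.30% with several reached that base mean. Of the 11 members without an adjusted p, UTP15, WDR46, NOLC1 and PES1 were listed at 0 in every accession, and EXOSC1, WDR75, DKC1, NOP2, PPAN, GNL3 and POLR1B had base means between 0.158 and 1.70. A listing at or near 0 is therefore no measure of whether these genes were expressed.

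**Figure D3:**
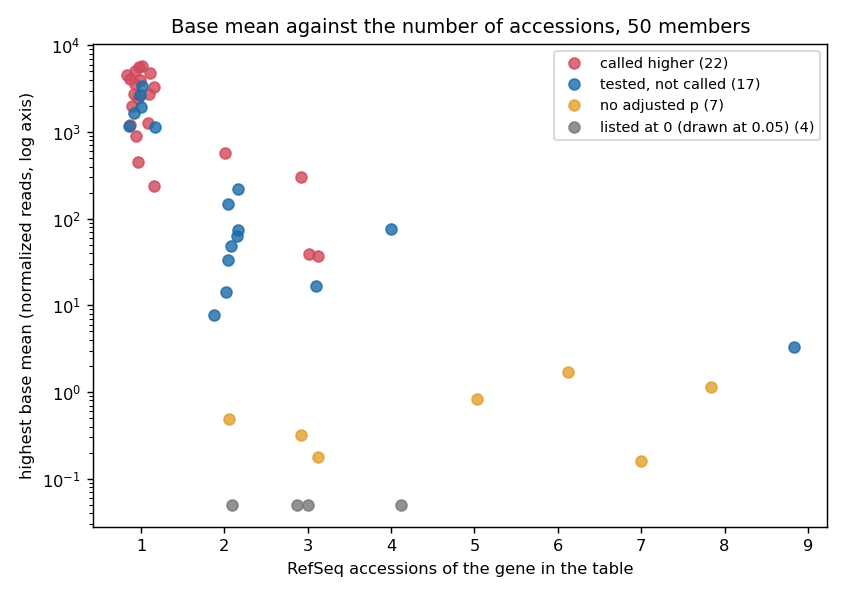
Highest base mean (normalized reads, log axis) of the 50 members against their number of RefSeq accessions, with points spread sideways for visibility. The 24 genes with 1 accession lie between 238.0 and 5792, while the genes listed at 0 or without an adjusted p all have 2 or more.

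For 8 members with very low base means, reads per library could be recovered, since a base mean this low is a sum of whole reads divided by known size factors (1 solution each within 1e-08). EXOSC1 had 0, 3 and 4 reads in the libraries on the knockout side and 0, 0 and 0 on the EGFR+vIII side. The log2 fold change given for EXOSC1 in the authors' deposited table was nevertheless only 0.24 (standard error 0.20), so values given for genes with few reads are no ratio of their reads, and levels computed from them understate the gap. DKC1 had 5, 0 and 2 reads in knockout libraries and 3, 0 and 0 in EGFR+vIII libraries, and NOP16 had 4, 6 and 4 against 0, 4 and 2 (14 against 6 in all, beside a deposited log2 fold change of 0.30). The groups overlap for both genes. NOP2, an rRNA methyltransferase, had 1, 0 and 0 reads against 4, 0 and 0, and WDR75 had 0, 1 and 0 against 0, 0 and 2. PPAN had 2 reads in all, and GNL3 (nucleostemin) and POLR1B had 1 read each. Libraries are listed by side only, since replicate numbers could not be tied to size factors.

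The called members lie on 13 chromosomes. Each member was also set beside the 20 nearest tested genes. The medians of these neighbourhoods ran from -0.29 to 0.32 on the log2 scale, with a median of 0.02. The fold change of 38 of 39 tested members exceeded that of its neighbourhood, by a median of 0.37. Relative to neighbours 20 of the 22 calls were kept. FBL stood 0.06 above its neighbours (adjusted p = 0.709) and NOP14 stood 0.77 above (adjusted p = 0.0747), both without a call, while EXOSC6 (0.40, adjusted p = 0.0153) and EXOSC9 (0.81, adjusted p = 0.0438) gained a call. The neighbourhood of WDR3 had the highest median, 0.32, and WDR3 stood 0.94 above it. EXOSC4 and BOP1 share a neighbourhood on chromosome 8 whose median was -0.14.

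**Figure D4:**
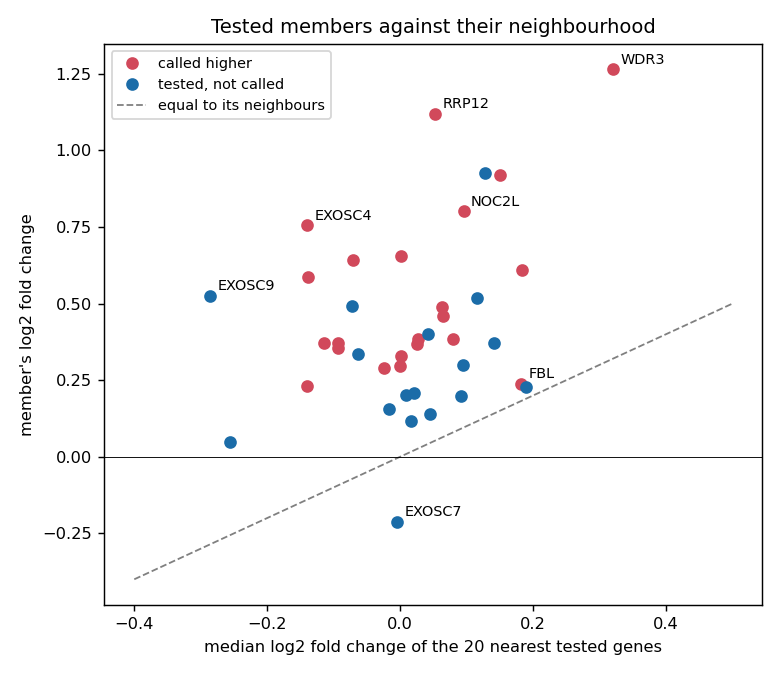
Log2 fold change of each tested member against the median of its 20 nearest tested genes; the dashed line marks equality. Points lie above the line in 38 of 39 cases, with EXOSC7 below it and UTP3 and FBL close to it.

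Promoters of members that rose were read from RefSeq (GRCh38.p14), and 43 of the 50 members matched. WDR3 and NOP14 are shown as members among the 3 largest rises, and EXOSC5 because it holds 2 E-boxes, a choice made after its matches were seen. Each runs from 250 bases before the start to 30 after it, 5′ to 3′ on the gene's strand, and lies at chr1:117929489-117929768 (plus strand), chr4:2963377-2963656 (minus strand) and chr19:41397330-41397609 (minus strand). Capitals mark matches to CACGTG, the E-box bound by MYC with MAX and by related factors, or to CCGGAA, a core of ETS factor sites, on either strand; the 3 ETS cores of WDR3 include an overlapping pair.
WDR3: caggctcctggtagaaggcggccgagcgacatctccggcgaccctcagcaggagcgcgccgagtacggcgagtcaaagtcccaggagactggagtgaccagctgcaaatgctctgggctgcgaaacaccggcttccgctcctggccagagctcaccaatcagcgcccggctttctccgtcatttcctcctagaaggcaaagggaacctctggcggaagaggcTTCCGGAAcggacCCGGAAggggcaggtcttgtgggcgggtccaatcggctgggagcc
NOP14: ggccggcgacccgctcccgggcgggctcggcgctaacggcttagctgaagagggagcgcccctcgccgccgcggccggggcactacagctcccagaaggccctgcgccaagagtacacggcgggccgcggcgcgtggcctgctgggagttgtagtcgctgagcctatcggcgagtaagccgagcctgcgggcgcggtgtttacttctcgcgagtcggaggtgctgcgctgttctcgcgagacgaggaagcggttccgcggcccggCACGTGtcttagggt
EXOSC5: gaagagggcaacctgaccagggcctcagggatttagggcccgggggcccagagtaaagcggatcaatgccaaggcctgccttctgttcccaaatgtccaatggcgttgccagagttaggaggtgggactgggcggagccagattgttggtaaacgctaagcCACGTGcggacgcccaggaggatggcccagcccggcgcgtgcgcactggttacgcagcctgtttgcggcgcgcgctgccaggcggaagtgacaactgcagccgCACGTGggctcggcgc

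Within 300 bases around the start, 15 of 43 member promoters (34.9%) held CACGTG, against 7.43% of all 27305 promoters and 9.52% of those of tested genes. CCGGAA was present in 19 of 43 (44.2%), against 17.6% of all promoters and 29.2% of those of tested genes. The shares were equal in called and uncalled members: an E-box was found in 6 of 17 members called higher and in 6 of 17 tested members not called, and an ETS core in 8 of 17 in both. Of the 17 not called, 9 had base means under 100, so a missing call is not a missing rise. The equal shares therefore cannot say whether a motif goes with a rise. Among the called members, BYSL, FBL, UTP20, WDR43, NOP14 and EXOSC5 held an E-box, and WDR3, NOC2L, EXOSC3, HEATR1, POLR1C and WDR36 held an ETS core without one. RRP12, EXOSC4, NOP58, RRS1 and BOP1 had no entry. A match describes letters in a window, not binding.

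A wider list of 137 other genes of these pathways showed how far the pattern reached. Of its 93 tested genes, 29 (31.2%) rose and 5 fell by the calls of the authors' deposited table, with a median log2 fold change of 0.28. Beside these stand 11.6% higher and 11.9% lower over all tested accessions. Large subunit factors rose in 16 of 37 tested genes (43.2%) and fell in 0. Small subunit factors rose in 8 of 28 (28.6%) and fell in 2. Nucleolar and snoRNP factors rose in 3 of 10 (30%) and fell in 0. The largest rises were those of NOL6, a processome protein (0.97, standard error 0.12), PAK1IP1 (0.94, standard error 0.10), the rRNA methyltransferase FTSJ3 (0.94, standard error 0.13), the helicase DDX21 (0.84, standard error 0.27) and WDR18 (0.73, standard error 0.11), each on a log2 scale in the authors' deposited table. The adjusted p of DDX21 was 0.0121 in the authors' deposited table and that of the other 4 did not exceed 6.01e-10. The base mean of DDX21 was 65.6. A pair of processome genes went the other way: DDX10, a helicase, fell by 0.50 (standard error 0.12, adjusted p = 0.000164) and KRR1 fell by 0.25 (standard error 0.09, adjusted p = 0.0247) in the authors' deposited table.

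Of 7 tested cofactors and nucleases of the exosome, 1 rose and 1 fell (14.3% each way), near the 11.6% higher and 11.9% lower over all tested accessions. Their median log2 fold change was -0.03. MTREX, the helicase that feeds RNA into the nuclear exosome, rose by 0.32 (standard error 0.08, adjusted p = 0.000302) and SKIC3, a scaffold of the cytoplasmic Ski complex, fell by 0.23 (standard error 0.08, adjusted p = 0.0245), as log2 values of the authors' deposited table. The catalytic subunit DIS3 is listed at 0 in all 4 accessions of the authors' deposited table. The difference between core and cofactors was not tested.

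Of other RNA polymerase I factors, 1 of 6 tested rose (16.7%) and 0 fell, near the 11.6% higher over all tested accessions. The 1 that rose was the shared subunit POLR1D, with a log2 fold change of 0.41 (standard error 0.14) in the authors' deposited table. MYC has 2 accessions and a highest base mean of 0.317 in the authors' deposited table, so its level was not detectable. Of 5 tested genes of the MYC family list, 0 rose and 2 fell, beside 11.6% higher and 11.9% lower over all tested accessions. MXD4 fell by 0.71 (standard error 0.12, adjusted p = 4.77e-08) and MXI1 fell by 0.99 (standard error 0.34, adjusted p = 0.0163), as log2 values of the authors' deposited table. The base mean of MXI1 was 41.5, over 3 accessions. Its call was lost at an adjusted p under 0.01 and with scaled Wald scores (adjusted p = 0.483). The other tested genes of this list were not called: MNT (-0.02, standard error 0.11), MXD3 (0.31, standard error 0.30) and MLX (0.29, standard error 0.37). Among these MNT was well counted, with a base mean of 751.1.

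**Figure D5:**
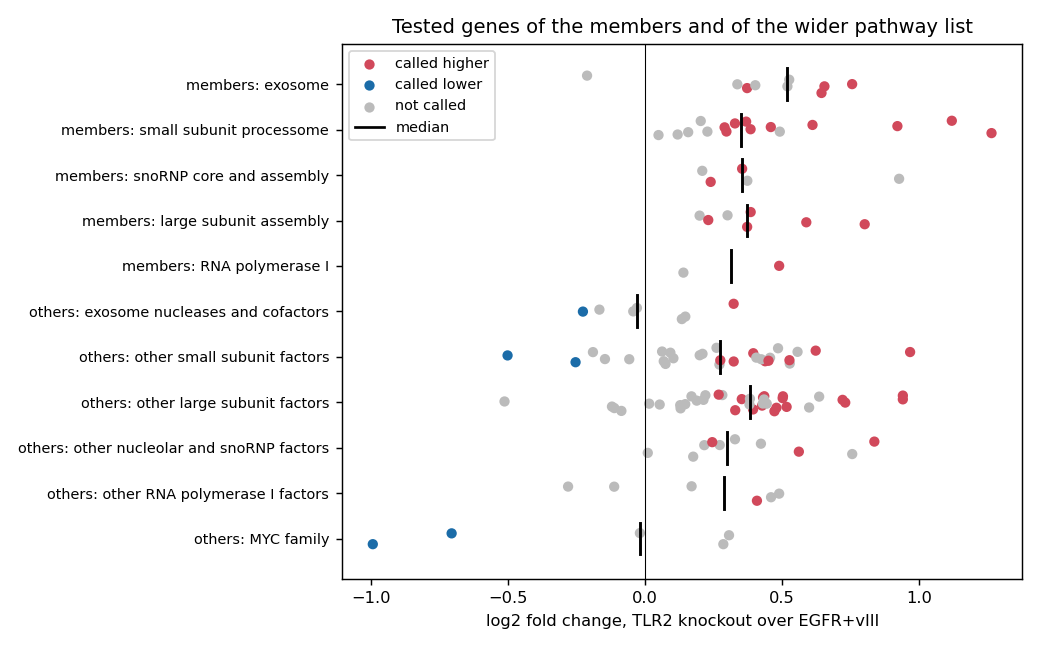
Log2 fold change of each tested member and wider-list gene by role, 1 point per gene with the median as a bar; red points were called higher and blue points lower. Member medians lie between 0.31 and 0.52, while the exosome cofactors (-0.03) and the MYC family (-0.02) centre near 0.

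For comparison, 3 other lists of the protein synthesis machinery were counted in the same way, with no test of the difference from the members. Cytosolic ribosomal proteins had 16 of 66 tested genes higher (24.2%) and 1 lower by the calls of the authors' deposited table, with a median log2 fold change of 0.25. Mitochondrial ribosomal proteins had 13 of 57 higher (22.8%) and 1 lower, with a median of 0.16, and aminoacyl-tRNA synthetases had 6 of 13 higher (46.2%) and 0 lower, with a median of 0.24, in the authors' deposited table. The members' own share was 56.4% of 39 tested, and that of all tested accessions 11.6%. The lists differ in depth, with median base means of 1179 (members), 211.0 (cytosolic), 763.1 (mitochondrial) and 1966 (synthetases). With p-values adjusted again among base means of at least 100, 21 of 28 members were higher. Cytosolic ribosomal proteins then had 16 of 38 higher, mitochondrial ones 14 of 42 and synthetases 6 of 8. The share of all accessions called higher under this new adjustment was not counted. With the deposited adjusted p it was 19.9% at base means of at least 100.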

How the data were processed

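RNA sequencing of U87 cells was analysed from 1 table of the authors' own comparison of 3 knockout with 3 EGFR+vIII libraries. Per the submitters' processing notes, the authors used STAR and DESeq2 with hg38. Tool versions, the read counter and its strand setting are not given in the labels used here. Per the file headers, the authors deposited a base mean per accession, a signal that averages size-factor-scaled counts over libraries. The authors' deposited fold change and SE are on the log2 scale, the deposited Wald score is their ratio, and the deposited p-value and adjusted p follow from that score. Of 67933 accessions, 49824 are at 0, 18109 carry a p-value and 10303 an adjusted p.

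Accessions were matched to RefSeq genes (GRCh38.p14, the build of hg38) for 98.8%, with python 3.11.15, pandas 2.3.3 and scipy 1.17.1. A call was an adjusted p under 0.05. The count test across all accessions fixed for the case of counts per library had no input here, and the adjusted p that the authors deposited from DESeq2 was used instead, as set out for that case. Levels per group were computed from base mean and fold change with 3 libraries a side; 95% intervals are the fold change plus or minus the normal quantile times SE. Size factors were derived from the 6 base mean values that 1 read in 1 library gives, and sides from the sign of the fold change there. Transcript lengths came from GENCODE 29. Depth shows as base mean: among tested members without a call and with a base mean under 100, SEs were 0.27 to 0.38. At the lowest base means the SE does not follow depth, being 0.14 for GNL3 and POLR1B with 1 read each. Intervals of sparsely counted genes are thus no full measure of their uncertainty. The largest SE in the table is 0.38.

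Named genes follow a rule: all members by role, with full statistics for at most the 12 largest called rises and falls; the 5 largest rises and 5 largest falls called in the wider list; MYC and TLR2; promoters for the 3 largest rises. Full values of other members, MTREX, DIS3, POLR1D, NCL, the partner genes and the promoter of EXOSC5 were added after their values were seen. Members and lists were chosen with earlier results of these data known; the motifs and 1 alternative (genes with 1 accession only) were chosen after seeing the data. The alternatives, tested on simulated data where they compute a statistic, were a test of more than 1.5-fold, scaled Wald scores, 20 nearest genes, centring, an adjusted p under 0.01, a base mean of at least 100, no filter, and a second accession.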

Additional observations from a re-analysis of the deposited data

How the results depend on the processing

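The direction of a called member could change only with centring and relative to neighbours, and each kept it in both. The other alternatives use its deposited fold change as it is. Members called lower numbered 0 in every alternative. Counts of members called higher stayed within 1.5 times the reported 22 except with a test of more than 1.5-fold (1) and with scaled Wald scores (8). The share of all accessions called was not counted under the alternatives, so the counts given here have no matching background. Under the test of more than 1.5-fold the wider list had 2 higher and 0 lower, aminoacyl-tRNA synthetases 1 higher, cytosolic ribosomal proteins 0 higher and 0 lower, and mitochondrial ribosomal proteins 0 and 0. With scaled scores the wider list had 11 higher and 1 lower, cytosolic ribosomal proteins 2 higher and mitochondrial ones 0. At an adjusted p under 0.01, 18 of the 22 member calls were kept, the wider list had 2 lower, cytosolic ribosomal proteins 10 higher and mitochondrial ones 7. Mitochondrial ribosomal proteins had 8 higher when centred and 7 without a filter, and cytosolic ones 2 lower relative to neighbours. Among the tested members only EXOSC7, not called, changed sign, to 0.49 with its second accession. Among genes with 1 accession only, an alternative chosen after seeing the data, all 18 calls were kept and EXOSC6 gained one (adjusted p = 0.036). No paired analysis was possible because the table gives 1 comparison and no values per library, and leaving out a replicate could not be run for the same reason. Few reads for genes with several accessions limit what can be said of 11 untested members and 9 sparsely counted members without a call. The same holds for RRP12 and NOP14, which were called on few reads.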

Other observations

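Some members start close to a gene on the opposite strand, a pair chosen for description after the values were seen. Of 17 members with such a partner within 1000 bases, 7 partners were tested, of which 1 was called higher and 0 lower by the authors' deposited table. GDAP2 starts 118 bases from WDR3 and rose by 0.33 (standard error 0.12, adjusted p = 0.0273), less than the 1.26 of WDR3, as log2 values of the authors' deposited table. YIPF3, 163 bases from POLR1C, had a fold change (log2) of -0.15 (standard error 0.10, adjusted p = 0.353), and DDX51, 138 bases from NOC4L, one of 0.13 (standard error 0.13, adjusted p = 0.583) in the authors' deposited table. MBTD1, 497 bases from UTP18, stood at 0.35 (standard error 0.15, adjusted p = 0.084) in the authors' deposited table, above the 0.20 of UTP18, and neither was called. The other 3 tested partners, HIGD2A (0.10), PTCD3 (-0.01) and ANKRA2 (-0.02), were not called.

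Exons of 13 of the 22 called members overlap exons of another gene in GENCODE, over more than 10% of the member's exonic length in 5 (EXOSC4, HEATR1, NOC2L, NOP14 and RRS1). Since the strand setting of the counting is not given, reads of such pairs cannot be told apart. The opposite-strand partner of NOC2L, SAMD11, had a fold change (log2) of -0.91 on a base mean of 43.1, and that of HEATR1, LGALS8, was listed at 0 in the authors' deposited table. Named pseudogenes exist for 9 members, 5 of them called (EXOSC3, EXOSC8, FBL, NOC2L and WDR12), and how reads shared with them were counted is not given.

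NCL, nucleolin, was the most abundant tested gene of the wider list, with a base mean of 39044. Its log2 fold change was 0.42 with an SE of 0.33 (adjusted p = 0.433) in the authors' deposited table, an SE as wide as that of members with few reads such as NOP14 (0.33).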
